A study of Mus musculus and Homo sapiens with 12 samples.

Results

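The zinc finger genes of human chromosome 19 were examined as 249 protein-coding genes whose symbol is ZNF followed by digits, of 58721 human gene identifiers with counts. Symbols and positions came from GENCODE 44 on GRCh38, and 3 of the 249 are read-through genes that join a pair of symbols (ZNF559-ZNF177, ZNF625-ZNF20 and ZNF816-ZNF321P). The libraries were made from RNA of the chromatin fraction (caRNA) of wild-type K562, an established human leukaemia line that was grown, per the labels, in medium with puromycin. Fragmented RNA was sequenced either after pull-down with an antibody against 5-methylcytosine (m5C), giving 3 IP libraries, or without pull-down, giving 3 Input libraries. The comparison of IP with Input asks which transcripts carry more or less m5C than the average transcript of the same RNA. The labels number the libraries 1 to 3 but do not say that they came from separate cultures, so the p-values measure the spread between these libraries, which may be technical. The labels also name the m5C antibody for the Input libraries.

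Most genes of this family encode proteins with a row of C2H2 zinc fingers that bind DNA, joined by a short conserved linker, and many of them carry a KRAB domain at the other end. The KRAB domain recruits TRIM28 and, through it, the H3K9 methyltransferase SETDB1, and many of these proteins silence retrotransposons. The genes arose by tandem duplication and lie in clusters along chromosome 19, so that neighbours are similar in sequence. With members put in a cluster when neighbouring starts lay within 1 Mb, and at least 5 members required, 238 of the 249 fell into 9 clusters, numbered here along the chromosome, and 11 lay outside them.

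The linker between fingers is a stretch that most members share at the DNA level, and it is shown here for the genes on which the results turn. The first linker in frame in the coding sequence of each gene is printed 5′ to 3′ on the coding strand from the GRCh38 sequence, with 6 bases before it and 9 after it, and capitals mark the 15 letters that match the Krüppel-type linker motif, searched with any base allowed at the last position of each of its 5 codons. The first 4 genes lie in cluster 4 and were lower in IP. ZNF83 and ZNF611 lie in cluster 8 and had many counts and no call, and ZNF787 is a GC-rich gene with no call. ZNF536 was higher in IP, but it passed the filter on low counts only through its IP values, so that it had to differ.
ZNF43: attaatACTGGAGAGAAACCCtacacatgt
ZNF431: attcatACTGGAGAGAAACCCttcaaatgt
ZNF90: attcatACTGGAGAGAAACCCtacaagtgt
ZNF681: attcatACTGGAGAGAATCCCtacaaacgt
ZNF83: attcatACTGGAGAGAAGCCAtataaatgt
ZNF611: attgatACTGGAGAAAATCCTtacaagtgt
ZNF536: acgcacACGGGCGAGAAGCCCttcaagtgc
ZNF787: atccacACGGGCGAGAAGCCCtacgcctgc
These sites lie in coding exons on chromosome 19, at chr19:21809341-21809370 on the minus strand for ZNF43, chr19:21183060-21183089 on the plus strand for ZNF431, chr19:20118386-20118415 on the plus strand for ZNF90 and chr19:23744698-23744727 on the minus strand for ZNF681. Those of ZNF83 and ZNF611 lie at chr19:52614112-52614141 and chr19:52706020-52706049 on the minus strand, that of ZNF536 at chr19:30444013-30444042 on the plus strand and that of ZNF787 at chr19:56088800-56088829 on the minus strand. The linkers of ZNF43, ZNF431 and ZNF90 are the same 15 letters and hold 8 G or C each. Those of ZNF681 and ZNF83 also hold 8, that of ZNF611 holds 6, and those of ZNF536 and ZNF787 hold 11. ZNF83, which had no call, held as many as the genes of cluster 4 shown. Whether these 15 letters bear on the calls was not tested. An in-frame linker was present in 215 of the 249 members, with a median of 6 and at most 25 in one gene. Searched on the sense strand of the canonical transcript in any frame, it was found in 87.1% of members and in 1.90% of 19797 other protein-coding genes. All 37 members of cluster 4 held one (median 7), against 38 of 59 in cluster 9 (median 2).

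The 3 Input libraries held 10477119 to 11865285 gene counts and the 3 IP libraries 93110 to 111286, so that 3 counts stood for 0.253 to 0.286 CPM (gene counts scaled to the same total in every library) in Input and for 27.0 to 32.2 CPM in IP. Members had a median of 369 Input counts and 3 IP counts, summed over the 3 libraries of a kind, and the member with the most IP counts had 96. The IP values of most members therefore rest on a handful of reads, and intervals and floors given here cover counting error only. Of the aligned records, 8.72% to 8.76% in Input and 31.6% to 32.4% in IP were set aside by the counting as not uniquely placed, which bears on genes with near copies. The line matched its label in the transcription factors GATA1, TAL1, LMO2, NFE2 and KLF1, which had 27.5 to 224 Input CPM. Of the globin genes, HBG1 had 3.80 CPM, and HBG2 and HBE1 were listed at 0.

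In Input, members spanned 0 to 9588 counts over the 3 libraries. Fewer cells with a transcript and less of it per cell cannot be told apart in such bulk libraries. Members made up 0.550% ± 0.0026 (SD, n = 3) of the gene counts in Input, and the 10 members with most counts took 24.8% of the family's Input counts. The 171 members that passed the filter on low counts had a median Input level of 3.44 CPM per kb of exon. The median of all 14522 genes tested was 6.16 CPM per kb, that of 203 ZNF genes on other chromosomes was 5.63 and that of 721 other protein-coding genes of chromosome 19 was 6.95.

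**Figure D1:**
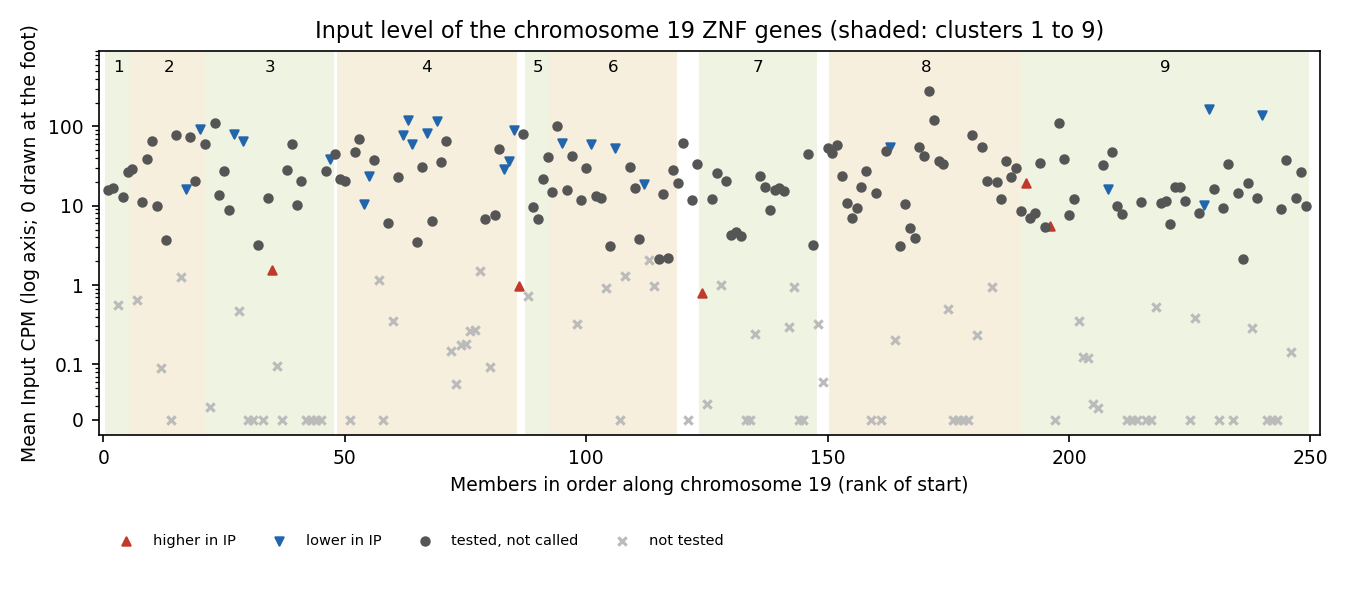
Mean Input CPM (log axis, 0 drawn at the foot) of each of the 249 members in their order along chromosome 19, with the 9 clusters shaded and numbered. Every cluster held members not tested, 10 of the 24 members lower in IP stood in cluster 4, and 35 members were at 0.

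For 35 members no read was counted in any Input library, and 9 more had 1 to 3 counts. These zeros went with the position of a gene inside other genes. Of the 35, 30 had at least 99% of the span between their first and last base inside other annotated genes on the same strand, and the median over the 35 was 99.97%. Among the 171 tested members the median was 0% and no member reached 99%. All 15 members that lay wholly inside another gene on their strand had no Input count, whereas 2 of 154 members with under 1% of their span shared had none (ZNF320 and ZNF888). Across the genome, 93.7% of 602 protein-coding genes wholly inside another gene on the same strand had no Input count, and so did 155 of the 165 of them that shared no exon base with it. The share was 26.1% for 920 genes inside a gene on the opposite strand only and 18.9% for 7034 genes that overlapped none. The globin genes HBG2 and HBE1, both listed at 0, were also wholly inside other genes on their strand, while HBG1, with 99.9% of its span shared, had 129 Input counts. A member listed at 0 is therefore not shown to be silent, and how the counting treated shared spans was not tested on reads.

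**Figure D2:**
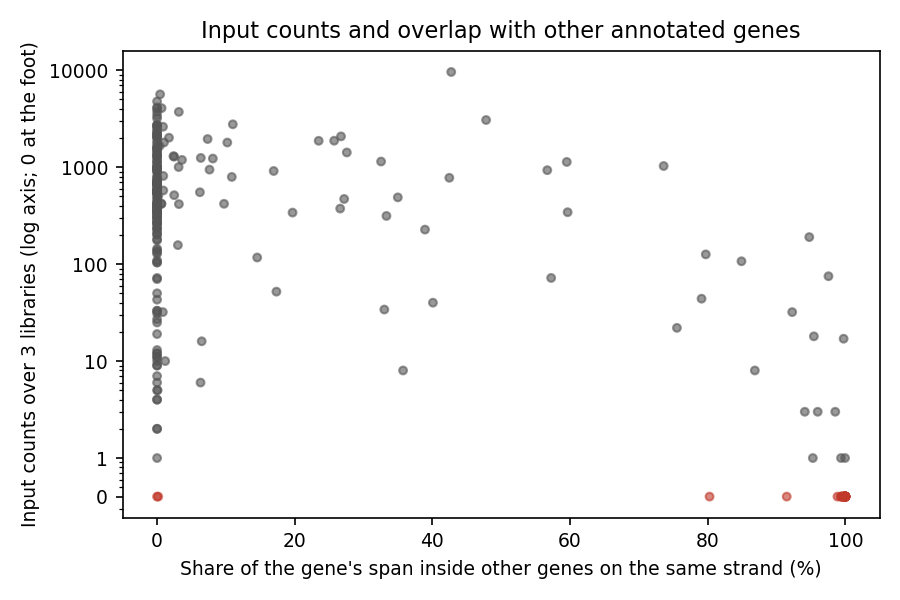
Input counts summed over 3 libraries (log axis, 0 drawn at the foot and coloured red) against the percentage of each member's span that lies inside other annotated genes on the same strand. Of the 35 members at 0, 30 sit at 99% or more, and members with under 1% shared have a median of 501 counts.

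The zeros took members from some clusters more than from others. Cluster 3 had 8 of its 26 members at 0, cluster 9 had 12 of 59, cluster 8 had 6 of 40 and cluster 7 had 4 of 24, while cluster 4 had 2 of 37, cluster 6 had 1 of 26 and clusters 1 and 5 had none of 5. They also split close relatives. ZNF780B had 2077 Input counts and ZNF780A, 99.9% of whose span is shared, had 0. ZNF585B had 44 and ZNF585A, wholly inside another gene, had 0. Reads of such near copies can also be split between them or set aside.

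The highest Input level per kb of exon was that of ZNF83 at 35.6 CPM per kb, from 3325, 3271 and 2992 counts. It was followed by ZNF586 at 30.4 (1985, 1881 and 1772 counts), ZNF787 at 29.8 (1324, 1312 and 1091 counts) and ZNF627 at 28.8 CPM per kb (1293, 1264 and 1159 counts). ZNF146, whose protein consists almost wholly of fingers, had 24.3 CPM per kb, and ZNF69 had 19.6. The order depends on the length used. Per kb of the whole gene span ZNF83 ranked 14 of 171 and ZNF627 ranked 33, the ranks by exon and by span had a Spearman correlation of 0.77 over the 171 genes, and 12 of the first 20 were shared. By cluster, the median per kb of exon of tested members lay between 2.41 CPM in cluster 7 and 6.01 CPM in cluster 4, and the genes with the top level of each cluster ranged from 9.26 CPM per kb in cluster 5 to 35.6 in cluster 8.

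Of the 171 tested members, 24 were lower in IP and 5 (2.92%) higher, and 142 were not called (edgeR quasi-likelihood test with Benjamini-Hochberg adjustment over all genes, adjusted p under 0.05). Among all 14522 tested genes, 31.5% were called, 16.4% lower and 15.1% higher, so the share of members lower was near the background and the share higher was below it. Among ZNF genes on other chromosomes 35 of 203 were lower and 13 higher, and among the other coding genes of chromosome 19 27 of 721 were lower and 156 higher. Of the 5 members higher, 3 (ZNF536, ZNF575 and ZNF20) had under 1.89 CPM in an Input library and passed the low-count filter only through their IP values, so that they had to differ. Among the 168 members that passed by Input alone 2 were higher and 24 lower, where 8.95% of 13266 such genes were higher and 2385 of them lower. The median log2 IP/Input of members was -0.43, which was 0.27 below the median of all tested genes (-0.16). The IP values of 54 members lay below all their Input values and those of 16 above, where 24.4% and 22.4% of all tested genes did so. Scaled by library size alone the calls were 14 lower and 7 higher, by DESeq2 they were also 14 and 7, and without IP replicate 2 the members called higher numbered 3. Of the 24 members lower, 13, 14 and 14 were still called without IP replicate 1, 2 or 3.

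As a family, members took 0.480% ± 0.020 (SD, n = 3) of IP gene counts against 0.550% in Input, a pooled ratio of 0.876. The ratio was 0.886 for ZNF genes on other chromosomes and 1.37 for the other protein-coding genes of chromosome 19. Both sets of ZNF genes thus gave less in IP than in Input, and the chromosomal neighbours gave more. The ratio was 0.966 for all protein-coding genes and 0.872 for all genes with at least 10 IP counts expected from their Input level. The sets also differed in GC content of the transcript. Its median over tested genes was 42.6% in members, 45.3% in ZNF genes on other chromosomes and 60.9% in the neighbours. The part of GC content in the contrast was not tested.

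The calls followed the Input level, which sets how many IP reads a gene can be expected to give. Members were put into 3 groups of 57 by Input CPM. In the lowest (0.793 to 12.3 CPM), 4 were higher in IP, 3 of them those that passed the filter through IP, and 2 lower, where 25.9% of all genes in the same range were higher and 0.363% lower. In the middle group (12.4 to 32.3 CPM), 1 was higher and 5 lower, against 9.41% and 3.61% of all genes. In the highest group (33.5 to 283 CPM) none was higher and 17 were lower, which was 29.8% of the 57 and the same share as among all genes of that range. Here the median log2 ratio lay 0.40 below the all-gene median for members and 0.27 below it for all genes of the range. The gap was wider in the other groups. Relative to the same median, members stood at -0.49 and all genes of the range at 0.08 in the middle group, and at -0.017 and 0.89 in the lowest. Genes of the lowest group could pass the filter through IP alone, and 1004 of the 2191 genes called higher among all genes did so.

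**Figure D3:**
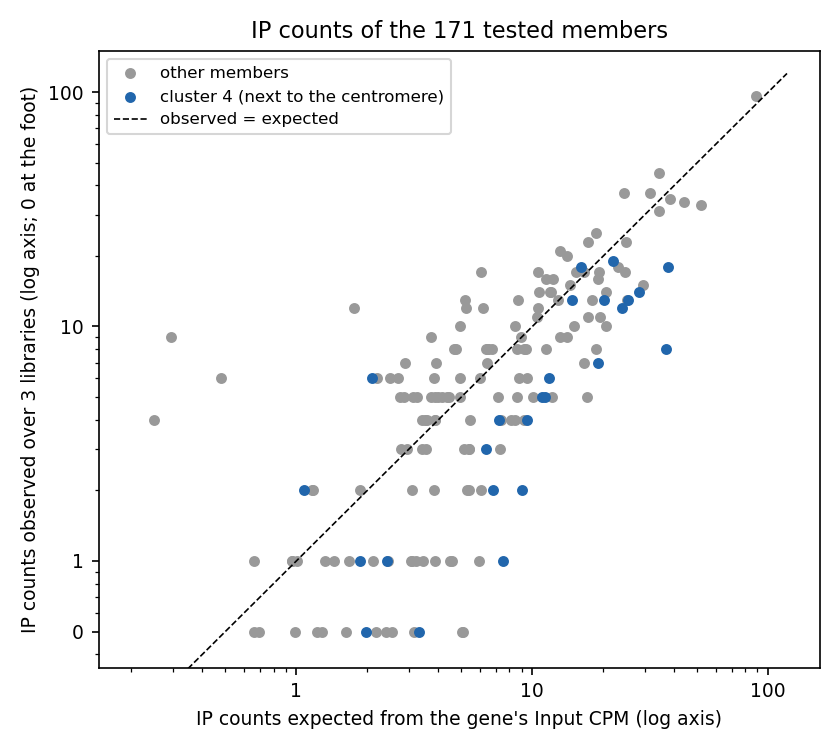
IP counts observed over 3 libraries against the counts expected from a member's Input CPM and the IP depth, for the 171 tested members (both axes log, 0 drawn at the foot, the dashed line marks equality). Members of cluster 4, in blue, mostly lie below the line, and ZNF83 at the top right had 96 counts where 88.4 were expected.

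The cluster next to the centromere stood lowest. Cluster 4 (chr19:19668796-24129968, short arm) held 37 members, of which 25 were tested, 10 were lower in IP, none was higher and 15 were not called. The cluster took 0.108% of Input counts and 184 IP counts, and its summed CPM in IP was 0.543 of that in Input. In the separate libraries the ratio was 0.641, 0.530 and 0.446 (mean 0.539 ± 0.098, SD, n = 3), where the 3 Input libraries lay between 0.998 and 1.00 of their own mean. The IP libraries thus lay wholly below the Input libraries, a difference for which an exact permutation test of 3 against 3 cannot give a p-value under 0.1. Without its 2 members highest in Input, ZNF431 and ZNF43, the ratio was 0.598.

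In cluster 8 (chr19:51571283-53580269), with a similar share of Input (0.120%) and 381 IP counts, the ratio was 1.02 and its libraries lay between 0.935 and 1.09. One of its 30 tested members, ZNF480, was lower and none higher. Clusters 2, 3 and 6 had ratios of 0.852, 0.803 and 0.811, with 2 of 12, 3 of 15 and 4 of 20 tested members lower. Clusters 5 and 9 had 0.962 each, and clusters 1 and 7, with 33 and 87 IP counts, had 1.45 and 1.26. In clusters 1, 5 and 7 no tested member was lower.

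**Figure D4:**
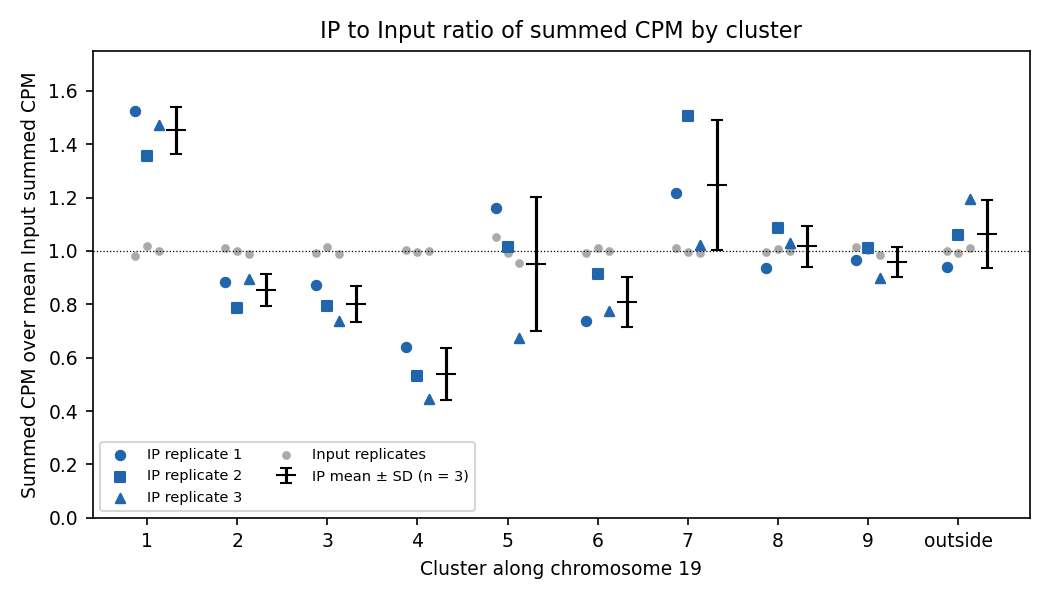
Summed CPM of the members of each cluster in each library, divided by the mean over the 3 Input libraries (blue symbols, IP replicates; grey, Input replicates; black, IP mean ± SD, n = 3). Cluster 4 has the lowest IP values, 0.446 to 0.641, and cluster 8 lies around 1, from 0.935 to 1.09.

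The base composition of the transcripts moved with this difference. The canonical transcripts of the tested members of cluster 4 had a median GC content of 36.6%, against 41.2% in cluster 8 and 46.4% in cluster 9. Over the family, the 57 tested members lowest in GC (33.2% to 40.1%) held 14 called lower and none higher, the 57 in the middle 7 lower and 1 higher, and the 57 highest in GC 3 lower and 4 higher, where the one in the middle (ZNF20) and 2 of the last 4 (ZNF536 and ZNF575) were the members that passed the filter only through IP. In the GC range of the lowest group, 29.4% of all tested genes were lower and 8.22% higher. The shares were 24.1% and 12.0% in the range of the middle group, and 11.0% and 17.7% in that of the highest. Members called lower made up 24.6%, 12.3% and 5.26% of these groups, below the share of all genes in each range. Across the 171 tested members log2 IP/Input and GC content had a Spearman correlation of 0.33, and of 0.42 across the 58 with at least 10 expected IP counts, where all points share the same 6 libraries.

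With the trend of each library on GC content taken out, 2 members of cluster 4 were called lower in place of 10, and the median log2 of its tested members lay 0.32 below that of all genes in place of 1.10. Over the family the counts became 13 lower and 9 higher, and 8 of those 13 were among the 24. Without the GC correction, 40.0% of the tested members of cluster 4 were lower, 26.3% of all genes of its GC range, and 15.7% of all genes within both its GC and its Input range. Of the 99 tested members outside cluster 4 in its GC range, 12 were lower. The comparison sets lay higher within that range, with median GC of 40.7%, 40.5% and 41.7% against 36.6% in cluster 4. The uncorrected shares thus do not compare genes of equal GC content. After the GC trend was taken out, 2 of 25 were lower in cluster 4 and 5 of the 99 other members. The share was then 8.67% of all genes of its GC range and 4.14% of those also in its Input range. Called higher were then 1 of the 25, against 15.7% and 11.0% of these 2 comparison sets. Relative to all tested genes, the median log2 of genes in its GC range was -0.29 before the correction and 0.18 after it. With the Input range also matched it was -0.25 before and 0.20 after. Cluster 4, at -0.32 after the correction, thus still lay below genes of its GC range. The count of 10 became 5 without IP replicate 3 and 6 by DESeq2. The part of GC content, of near copies and of read placement in the difference was not tested beyond these values.

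**Figure D5:**
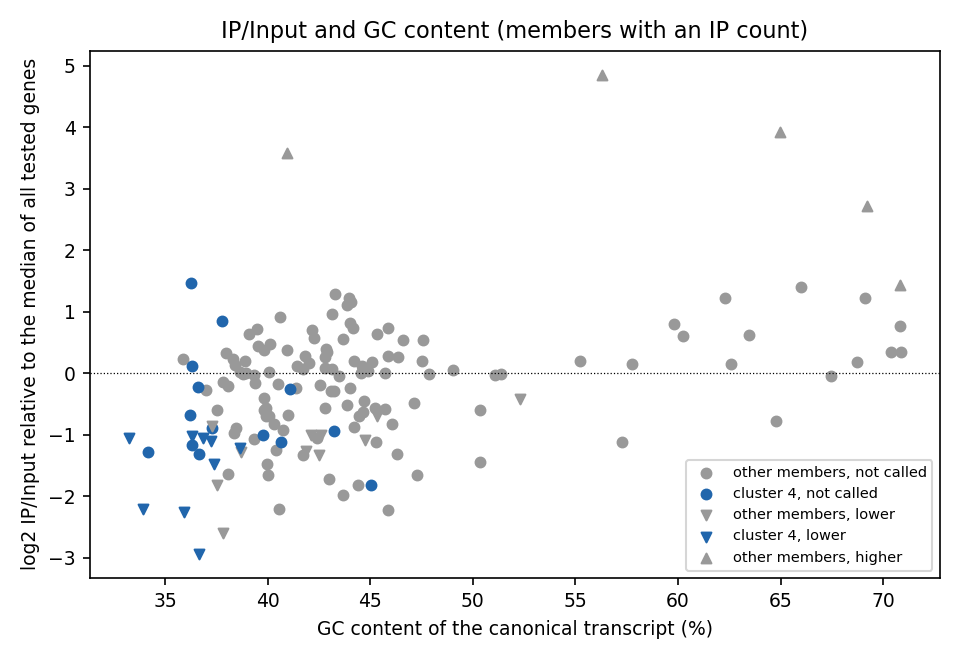
The log2 IP/Input of tested members with at least 1 IP count, less the median of all tested genes, against the GC content of the canonical transcript (blue, cluster 4; grey, other members; triangles pointing down or up, called lower or higher). Members of cluster 4 lie mostly below 40% GC and below 0, and the 5 members called higher, 3 of which passed the low-count filter only through IP, lie between 40.9% and 70.8% GC.

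Of the 24 members called lower, the smallest adjusted p was that of ZNF43 (chr19:21804946-21852125, minus strand, cluster 4). It had 1371, 1415 and 1230 counts in Input and 4, 1 and 3 in IP, where 37.0 were expected from its Input level. The groups did not overlap, the log2 IP/Input was -2.42 ± 0.37 (SE) and edgeR's adjusted p was 1.08e-08. ZNF43 kept its call under each alternative in which it was tested. ZNF431 (chr19:21142024-21196053, plus strand), the member of cluster 4 with the highest Input CPM, had 1430, 1356 and 1278 Input counts and 5, 7 and 6 IP counts. Its IP values all lay below Input, at a log2 of -1.26 ± 0.29 and an edgeR adjusted p of 0.000157, and with the GC trend taken out the call was lost (log2 -0.43, adjusted p = 0.34).

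ZNF90 (chr19:20077994-20127076) and ZNF681 (chr19:23739195-23758891), also of cluster 4, had few IP reads. ZNF90 had 289, 260 and 263 Input counts and 1, 0 and 0 IP counts, a CPM ratio of 0.134 with an exact 95% interval of 0.00338 to 0.746. ZNF681 had 346, 335 and 300 Input counts and 0, 0 and 2 IP counts, a ratio of 0.221 (0.0267 to 0.801). Both had IP values below all Input values. The call on ZNF90 was lost without IP replicate 2 or 3 (edgeR adjusted p = 0.0667 and 0.0549) and that on ZNF681 without IP replicate 1 or 2 (0.0966 and 0.103), and both were lost with the GC trend taken out and by DESeq2. ZNF569 in cluster 6, with 199, 235 and 208 against 0, 1 and 0 counts, had a ratio of 0.169 (0.00427 to 0.945), and its call was lost without IP replicate 1 or 3 or Input replicate 3 (edgeR adjusted p = 0.149, 0.141 and 0.0507). The call on ZNF569 was also lost with the GC trend taken out, by library size alone and with replicate number as a block (edgeR adjusted p = 0.204, 0.0861 and 0.0717). By DESeq2 it was lost as well (adjusted p = 0.0935).

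Among the members called lower, 4 had no IP read at all. ZNF805 had 196, 199 and 156 Input counts and ZNF426 had 204, 174 and 166, and with 3 counts taken as the floor over the IP libraries they were at least 1.69-fold and 1.67-fold lower. ZNF682, of cluster 4, and ZNF776 were at least 1.10-fold and 1.05-fold lower on the same floor, and lost their calls in most alternatives, including the omission of any IP library (edgeR adjusted p = 0.0952 to 0.118). The depth of the IP libraries thus sets a bound near 1 for genes of this level, and the fitted values of such genes are not given. With the genes that had no IP read set at their bound, the median of the family lay 0.12 below that of all genes.

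Lower calls outside cluster 4 included members with many reads. ZNF586, the member of cluster 9 with most Input CPM, had 12, 13 and 8 IP counts where 52.0 were expected, a log2 of -0.86 ± 0.23 (edgeR adjusted p = 0.00124). ZNF562 in cluster 2 had 1153, 1018 and 1008 Input and 7, 3 and 5 IP counts, a log2 of -1.17 ± 0.32 (edgeR adjusted p = 0.0021), and lost its call without IP replicate 2 (adjusted p = 0.072). ZNF69 in cluster 3 had 782, 762 and 687 against 7, 3 and 0 counts, a log2 of -1.25 ± 0.39 (edgeR adjusted p = 0.00811), and lost its call without IP replicate 2 or 3 (adjusted p = 0.0639 and 0.205). In each of the 3 genes every IP value lay below every Input value. The other 11 members called lower, ZNF480, ZNF708, ZNF791, ZNF420, ZNF850, ZNF726, ZNF254, ZNF714, ZNF429, ZNF440 and ZNF566, had log2 values from -1.98 for ZNF480 to -1.02 for ZNF566, and only in ZNF566 did IP and Input values overlap.

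Of the 5 members higher in IP, 3 had 27 to 52 Input counts in all and, as said, passed the low-count filter only through their IP values, so their counts are given as a description with no test. ZNF536 (chr19:30224891-30713586), a repressor of neuronal differentiation that lies outside the clusters, had 8, 9 and 15 Input counts and 5, 1 and 3 IP counts where 0.295 were expected. ZNF575 in cluster 7 had 10, 10 and 7 against 1, 2 and 1 counts, and ZNF20 in cluster 3 had 21, 17 and 14 against 1, 3 and 2. In each of the 3 the IP CPM lay above the Input CPM in every library, on 4 to 9 IP reads. ZNF20 shares 54.0% of its exon bases with other genes on its strand, among them the read-through gene ZNF625-ZNF20.

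ZNF580 and ZNF628, both in cluster 9, passed the filter by Input alone. ZNF580 had 71, 56 and 63 Input and 3, 3 and 6 IP counts (log2 2.56 ± 0.58, edgeR adjusted p = 0.000146), and 94.8% of its span lies inside other genes on its strand. ZNF628 had 224, 244 and 190 against 3, 10 and 4 counts (log2 1.28 ± 0.43, edgeR adjusted p = 0.0129), with IP replicate 2 the highest. The call on ZNF628 was lost without that library (edgeR adjusted p = 0.479), with the GC trend taken out and with no low-count filter. The transcripts of ZNF580 and ZNF628 had 69.2% and 70.8% GC.

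Of the genes with the highest Input level per kb, 4 were not called. ZNF83 (chr19:52594060-52690559, minus strand) had 38, 33 and 25 IP counts, 96 in all where 88.4 were expected, a log2 of -0.09 ± 0.15 (edgeR adjusted p = 0.711) whose sign turned with the scaling (0.18 by library size alone). ZNF787 had 15, 14 and 16 IP counts (log2 0.18 ± 0.22), ZNF146 had 13, 12 and 12 (0.03 ± 0.24) and ZNF627 had 6, 14 and 11 (-0.35 ± 0.25), with adjusted p from 0.297 to 0.946. A p over the threshold does not show that their levels were equal, and 3 of them gained a call under an alternative. With the GC trend taken out ZNF146 was called higher (log2 0.72, edgeR adjusted p = 0.0212), and with no low-count filter ZNF83 (log2 -0.43, adjusted p = 0.0124) and ZNF627 (-0.70, 0.0224) were called lower.

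Of the 10 members listed for known roles, 8 were tested and 1, ZNF274, was lower. ZNF274, which brings SETDB1 to the 3′ ends of zinc finger genes, had 1725, 1640 and 1399 Input and 14, 12 and 8 IP counts (log2 -0.58 ± 0.23, edgeR adjusted p = 0.046). The call is close to the threshold and was lost in 10 alternatives, among them the omission of Input replicate 1 or of any IP library (edgeR adjusted p = 0.0529 to 0.239). ZNF93 and ZNF91, which silence L1 and SVA retrotransposons in the human genome, lie in cluster 4 but were not called. ZNF93 had 865, 780 and 731 against 7, 5 and 7 counts (log2 -0.41 ± 0.31), and ZNF91 had 104, 82 and 76 against 0, 1 and 0. The IP depth does not resolve ZNF91, for which 2.42 IP counts were expected. ZNF611 in cluster 8 had 1433, 1418 and 1288 against 14, 14 and 7 counts (log2 -0.33 ± 0.23, edgeR adjusted p = 0.296), and with no low-count filter it was called lower (-0.68, adjusted p = 0.0175). ZNF224, a repressor of the aldolase A gene, had 4, 0 and 0 IP counts and was called only without IP replicate 1, the imprinted gene ZNF331 had 3, 0 and 3, ZNF304 had 0, 1 and 0 and ZNF534 had none, and none of these was called over all 6 libraries. ZNF382 and ZNF676 had 11 and 5 Input counts and were not tested.

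Partners of KRAB domain proteins were described from a list of 12 genes, all tested. Of these, 2 were higher in IP (16.7%, against 15.1% of all tested genes), 4 lower (33.3%, against 16.4%) and 6 not called, with a median 0.20 below that of all genes. The 4 lower genes had 126 to 273 Input CPM. Among all genes of 33.5 to 283 CPM, 29.8% were lower and 4.46% higher, so the share lower was near that of genes at this level. TRIM28, the corepressor that binds the KRAB domain, had 912, 878 and 769 Input and 16, 15 and 10 IP counts, at a log2 of 0.59 ± 0.24 (edgeR adjusted p = 0.0474). SETDB1 had 953, 948 and 794 against 10, 6 and 2 counts and was not called (log2 -0.67 ± 0.31, edgeR adjusted p = 0.0927). Its partner ATF7IP was lower (log2 -0.75 ± 0.23), as were the DNA methyltransferase DNMT1 (-0.41 ± 0.17), MORC3 (-0.78 ± 0.21) and SMARCAD1 (-1.50 ± 0.30). The other gene higher in IP, the chromatin remodeller CHD4, had 113 Input and 6 IP counts in all, and 83.9% of its span is shared with other genes on its strand.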

How the data were processed

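Wild-type K562 caRNA was measured in 3 Input and 3 IP libraries. The deposited files hold whole-number counts of reads by gene, with HTSeq's summary lines at their end. They trimmed reads with Trimmomatic 0.39, aligned them with HISAT2 2.1.0 to hg38 with spike-ins and, per the study's methods, removed duplicates before calling peaks. Whether the counts were made after that step, over exons or whole genes, or by strand, is not given in the sources used here. Summary lines (26.0% to 26.2% of Input and 60.7% to 61.4% of IP records) stayed out of library sizes and tests. No spike-in values were used, so log2 IP/Input is relative within a library.

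Of the identifiers, 99.1% matched GENCODE 44, another release than the study's. GC content is that of the canonical spliced transcript. Overlap of spans used GENCODE 44 genes that the count tables list. All genes were fitted with edgeR 4.0.16 in R 4.3.3 (TMM, filterByExpr, which keeps genes at 1.89 CPM or more in 3 libraries, glmQLFit, glmQLFTest) with Benjamini-Hochberg adjustment at 0.05. The common biological coefficient of variation was 0.00988, close to counting noise. The standard error was the log2 value over the square root of F. Expected IP counts are a gene's pooled Input share times the IP depth. CPM and their ratios use plain library sizes. DESeq2 1.42.0 and the settings in the closing section were alternatives. Tables used Python 3.11.15, pandas 2.3.3 and SciPy 1.17.1.

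Input libraries 1 and 2, and 1 and 3, differed by less than the sampling noise of separate draws over genes (chi-square per degree of freedom 0.912 and 0.918). Libraries 2 and 3 differed by slightly more than that noise (1.03, chi-square p = 0.0044 over 17880 degrees of freedom). All 3 pairs differed in GC content (18.9 to 78.3 over GC bins), and they were kept as 3 replicates. With Input replicates 1 and 2 joined as 1 library, 20 members were lower and 5 higher, and 8 were lower in cluster 4. The IP pairs differed by more than sampling noise (1.17 to 1.21 over genes, 1.15 to 1.49 over members). Genes named were the 8 largest and 8 smallest log2 values among called members whose IP and Input values did not overlap (5 and 8 were available), the 6 highest per kb, the member with most Input CPM in each cluster and a list of known roles. ZNF480, ZNF708 and the other members named in one sentence for their calls, the members listed at 0 and CHD4 were added after their values were seen. Members and lists were chosen with earlier results of these data known. On simulated data with 200 genes changed 8-fold, 100 of 100 higher and 100 of 100 lower genes were recovered at 20 or more IP counts. Below that level, 91 and 35 of 100 were recovered. The simulations covered 13480 and 13498 genes. Of the 216 and 136 genes called in them, 7.41% and 7.35% were false, more than the threshold on adjusted p allows for. Whether these rates hold for the real IP libraries, which differed by more than sampling noise, was not tested. The mouse libraries and peak lists were not used here. Promoter and protein sequences were not used here.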

Additional observations from a re-analysis of the deposited data

How the results depend on the processing

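The counts of members called and the family's median were recomputed under other settings. Members called lower numbered 14 with library size scaling alone, 50 with no low-count filter (of 214 tested), 13 with the GC trend taken out, 14 by DESeq2 and 0 with Input thinned to IP depth, where 8 members were tested. Members called higher numbered 9 with the GC trend taken out and 0 with Input thinned. The median relative to all genes, -0.27, was -0.073 with no filter, -0.15 with the GC trend taken out, 0.0556 with Input thinned (sign reversed, on 8 members) and -0.12 with genes of no IP read at their bound. Leaving out each library in turn gave 3 to 6 members higher, 17 to 22 lower, a relative median of -0.37 to -0.28, 5 to 9 lower in cluster 4 and a cluster ratio of 0.492 to 0.585. Of the 24 members lower, 13, 14 and 14 stayed so without IP replicate 1, 2 or 3, and 8 with the GC trend taken out. In cluster 4 the lower calls were 2 with the GC trend taken out, 6 by DESeq2 and 15 of 35 tested with no filter. Same-numbered IP and Input libraries did not deviate together (correlations 0.026, -0.026 and 0.034 over 4422 genes), so the numbers do not pair them. With replicate number as a block, 17 members were lower and 5 higher. The settings for cluster 4 and the bound were chosen after seeing the data, and the cause of these shifts was not tested. Of the values of single named genes, 178 kept a call, 164 stayed without one, 58 lost a call, 5 gained one and 18, all without a call in the report, changed sign. These were ZNF83 (0.0317 with RLE scaling, 0.0316 by DESeq2, 0.18 by library size, 0.27 with GC, 0.19 with thinning), ZNF787 (-0.16 with no filter, -0.10 with GC), ZNF146 (-0.32 with no filter, -0.0168 to 0.0869 on leaving out a library), ZNF77 (-0.30 with no filter, -0.22 with GC, -0.0852 to 0.149 on leaving out a library), ZNF792 (0.0847 by library size, -0.466 to 0.0945 on leaving out a library), ZNF180 (-0.0394 with no filter, -0.222 to 0.595 on leaving out a library), ZNF93 (0.0268 with GC) and ZNF611 (0.18 with GC). With gaps of 0.5 Mb or 2 Mb the members formed 10 or 6 clusters, of 235 and 246 genes.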
